A study of Mus musculus with 4 samples.

Results

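The 10 genes Ddit3, Atf4, Atf3, Trib3, Chac1, Asns, Sesn2, Psat1, Hspa5 and Xbp1 were taken to follow the integrated stress response and the unfolded protein response in stromal and endothelial cells of tumour-draining mouse lymph nodes. They were chosen by name, with earlier results of these data known. All 10 were on the array, with 22 probe sets that the platform annotation assigned to 1 gene only, out of 34945 such probe sets for 18193 genes. The probe set with the strongest mean signal over the 4 arrays stands for each gene, and the others are given beside it. Trib3 and Ddit3 stood higher in the metastatic group, by 1.22 and 0.68 on the log2 scale, while the other 8 genes differed by at most 0.30 in either direction over all 4 arrays, and by up to 0.53 (Psat1) with 1 array left out. None of the 10 passed the test over all probe sets.

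The metastatic group consisted of 2 preparations from nodes draining tumours of 293-VEGF-D cells, a human embryonic kidney line made to overexpress the lymphatic growth factor VEGF-D. The non-metastatic group consisted of 2 preparations from nodes draining tumours of 293-Apex cells, which the labels describe as lacking VEGF-D. All hosts were female SCID/NOD mice aged 6 to 8 weeks, an immunodeficient strain, injected under the skin of the flank, and the axillary node was collected 3 to 4 weeks later, once tumours measured 1600 to 2500 mm3. A preparation pooled nodes from 1 to 5 mice, which were digested, cultured briefly in EGM-2 MV medium and enriched on beads for podoplanin, which lymphatic endothelium and the fibroblastic reticular cells of the node both display. Metastatic nodes were used only if visibly enlarged, and the sorting label gives depletion of tumour cells and leukocytes before culture for the metastatic preparations alone, although the growth protocol describes it without separating the groups. VEGF-D and node enlargement go with the group, as depletion does by the sorting label, and cannot be told apart from metastasis. Every preparation passed through culture, so the values describe cultured cells.

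Several defining genes of endothelium were dim. The lymphatic regulator Prox1 averaged a log2 signal of 4.00 and the junction gene Pecam1 4.94, and the leukocyte gene Ptprc 4.13, all under the median of all probe sets (5.95). Of 6 lymphatic and 8 blood and pan endothelial markers, 3 and 6 averaged under that median. The podoplanin gene Pdpn averaged 10.60 and the fibroblast receptor gene Pdgfrb 12.27. The 7 fibroblastic stroma markers had a mean log2 signal of 12.59 and 12.47 on the metastatic arrays, against 12.59 and 12.43 on the non-metastatic arrays. In bulk samples, fewer cells of a type and less RNA per cell cannot be told apart.

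The integrated stress response starts when a kinase senses misfolded protein in the endoplasmic reticulum, lack of amino acids, lack of haem or viral RNA and phosphorylates the initiation factor eIF2. Most translation then slows, while the mRNA of the transcription factor ATF4 is translated better, and ATF4 raises genes for amino acid supply and for stress effectors such as CHOP, the product of Ddit3. The unfolded protein response adds a pair of further arms, the sensor IRE1, which splices the Xbp1 mRNA, and ATF6, which raises chaperones such as BiP, the product of Hspa5. An array signal reports the amount of mRNA and does not show how well Atf4 is translated or how much Xbp1 is spliced.

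The promoter windows of 5 of the genes held letters that match DNA elements known for these factors. All 10 genes matched the RefSeq promoter table (build GRCm38.p6), which holds 250 bases before and 50 bases after a transcription start. The letters TGATGNAA, a form of the C/EBP-ATF response element bound by ATF4, were searched on both strands and were found in the windows of Trib3, Asns, Chac1 and Atf3, and in 3.97% of all 32851 windows. The letters CCAAT followed after 9 free bases by CCACG, the endoplasmic reticulum stress element bound by ATF6 with NF-Y, were found on either strand only in the window of Hspa5 among the 10 genes, and in 0.119% of all windows. In the sequences that follow, capitals mark these matches, and each is written 5′ to 3′ along the strand of its gene. Trib3 is shown because it had the largest difference, Asns and Chac1 because they carry the same element with small differences, Atf3 because it carries the element and was not higher, and Hspa5 as the chaperone of the other arm. The windows lie at chr2:152344011-152344310 (minus strand), chr6:7693160-7693459 (minus strand), chr2:119350992-119351291 (plus strand), chr1:191183284-191183583 (minus strand) and chr2:34771840-34772139 (plus strand).
Trib3: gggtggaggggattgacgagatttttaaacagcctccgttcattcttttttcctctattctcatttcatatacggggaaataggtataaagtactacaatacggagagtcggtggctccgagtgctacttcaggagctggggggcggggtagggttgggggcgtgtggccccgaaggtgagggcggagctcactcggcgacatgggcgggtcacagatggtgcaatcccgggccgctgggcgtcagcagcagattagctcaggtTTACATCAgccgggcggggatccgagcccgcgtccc
Asns: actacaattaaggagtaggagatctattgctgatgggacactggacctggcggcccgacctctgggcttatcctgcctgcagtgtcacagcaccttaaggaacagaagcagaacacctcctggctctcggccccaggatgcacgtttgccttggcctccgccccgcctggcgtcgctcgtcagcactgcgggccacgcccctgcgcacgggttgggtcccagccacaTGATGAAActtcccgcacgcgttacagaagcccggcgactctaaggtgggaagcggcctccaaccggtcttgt
Chac1: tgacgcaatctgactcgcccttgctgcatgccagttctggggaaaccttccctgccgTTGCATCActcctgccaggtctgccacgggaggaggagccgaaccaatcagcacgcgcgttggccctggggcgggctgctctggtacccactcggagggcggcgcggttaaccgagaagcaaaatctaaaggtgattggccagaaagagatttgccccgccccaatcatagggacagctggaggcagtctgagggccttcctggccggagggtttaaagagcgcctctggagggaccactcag
Atf3: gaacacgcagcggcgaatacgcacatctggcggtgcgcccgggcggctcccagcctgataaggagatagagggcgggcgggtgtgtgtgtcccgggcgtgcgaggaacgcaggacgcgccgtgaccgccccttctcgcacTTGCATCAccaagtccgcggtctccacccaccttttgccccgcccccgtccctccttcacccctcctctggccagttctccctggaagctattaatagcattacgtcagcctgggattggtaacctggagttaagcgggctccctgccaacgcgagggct
Hspa5: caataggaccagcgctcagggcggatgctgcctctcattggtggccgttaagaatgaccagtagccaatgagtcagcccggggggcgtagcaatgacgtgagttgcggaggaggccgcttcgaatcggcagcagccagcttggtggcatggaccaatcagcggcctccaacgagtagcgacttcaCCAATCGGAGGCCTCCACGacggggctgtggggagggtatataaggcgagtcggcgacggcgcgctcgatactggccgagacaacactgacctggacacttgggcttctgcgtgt
The match in Trib3 begins 15 bases into the transcript and that in Asns 23 bases before the start. Those of Chac1 and Atf3 begin 193 and 110 bases before the start, and that of Hspa5 begins 65 bases before it. The windows of Ddit3, Atf4, Sesn2, Psat1 and Xbp1 held neither set of letters. A match is a description of the letters, and a window without one says nothing of a factor's binding.

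The comparison asks whether mRNAs of these stress pathways differ between the metastatic and the non-metastatic group. Trib3 encodes a pseudokinase that ATF4 and CHOP induce and that in turn restrains them. It had log2 signals of 9.81 and 10.55 on the metastatic arrays, against 8.84 and 9.08 on the non-metastatic arrays. Both metastatic arrays lay above both non-metastatic arrays, and the 2 metastatic arrays lay further apart than the 2 non-metastatic ones. The means were 10.18 ± 0.53 in the metastatic and 8.96 ± 0.17 in the non-metastatic group (SD, n = 2 each), a difference of 1.22 (SE 0.25, 95% interval 0.59 to 1.85), or 2.33-fold higher signal. The second probe set of Trib3 had 8.96 and 9.73 on the metastatic arrays, against 7.96 and 8.34 on the non-metastatic arrays, a difference of 1.20 (SE 0.28). Both probe sets thus gave the same order of the 4 arrays. The names of the representing one, 1456225_x_at, and of the second, 1426065_a_at, differ in that the first ending is used for probes that may also bind unrelated transcripts and the second for probes shared by transcripts of 1 gene. Without metastatic replicate 2 the difference was 0.85, and without metastatic replicate 1 it was 1.59.

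Ddit3 encodes CHOP, a transcription factor that promotes cell death under long stress. It had log2 signals of 11.29 and 11.22 on the metastatic arrays, against 10.48 and 10.66 on the non-metastatic arrays. The groups did not overlap and the replicates of each lay close together. The means were 11.26 ± 0.05 in the metastatic and 10.57 ± 0.13 in the non-metastatic group (SD, n = 2 each), a difference of 0.68 (SE 0.12, 95% interval 0.39 to 0.98), or 1.61-fold higher signal. It kept a value of 0.59 to 0.77 with any single array left out. The second probe set of Ddit3 did not follow: it had 8.01 and 8.72 on the metastatic arrays, against 8.32 and 8.12 on the non-metastatic arrays, with a difference of 0.15 (SE 0.24) and groups that overlapped. With both probe sets averaged the difference was 0.41.

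In limma with Benjamini-Hochberg adjustment over 45037 probe sets, Ddit3 had an adjusted p of 0.362 and Trib3 one of 0.426, against a threshold of 0.05. None of the 10 genes passed, and 0.0% of all probe sets did. At an unadjusted limma p under 0.05, 2 of the 10 genes stood out, Ddit3 and Trib3, where 6.7% of the 18193 genes did so. Trib3 was also one of the 0.242% of genes with a difference of at least 1 log2 unit upward. The intervals given here are not adjusted for the number of probe sets. With 2 arrays in each group, the smallest p an exact two-sided permutation test allows is 0.333.

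**Figure D1:**
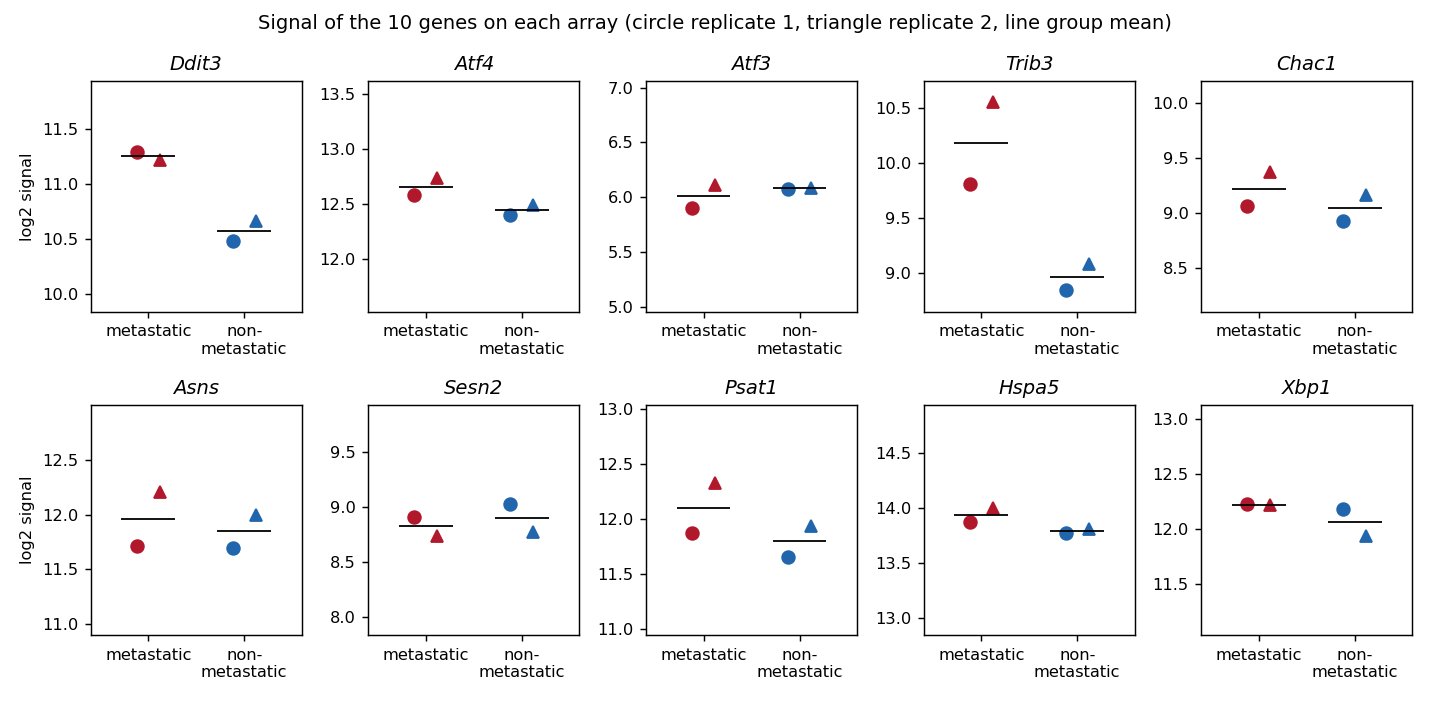
Log2 signal of the representing probe set of each of the 10 genes, with the metastatic group on the left and the non-metastatic group on the right; symbols are single arrays, lines are group means, and every panel spans the same height on the log2 axis. Trib3 and Ddit3 separate the groups most, by 1.22 and 0.68, and the ranges over the 4 arrays of the other 8 genes run from 0.21 for Atf3 to 0.67 for Psat1.

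The transcription factor genes Atf4 and Atf3 differed less than Ddit3, and their intervals included 0. Atf4, whose product drives the response, had 12.57 and 12.73 on the metastatic arrays, against 12.40 and 12.49 on the non-metastatic arrays. Its groups did not overlap, and its difference was 0.21 (SE 0.12, 95% interval -0.09 to 0.50), and it ran from 0.13 to 0.29 with single arrays left out. The other 2 probe sets of Atf4 gave 0.11 and 0.01, with groups that overlapped. Atf3, a stress-induced member of the same family, had 5.90 and 6.12 on the metastatic arrays, against 6.08 and 6.08 on the non-metastatic arrays, close to the median signal of all probe sets. Its difference was -0.07 (SE 0.12, 95% interval -0.38 to 0.23), and it turned to 0.03 without metastatic replicate 1. The windows of both Trib3, which was 2.33-fold higher, and Atf3, whose groups overlapped, held a match to the ATF4 element. The part of the element in these values was not tested.

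Xbp1 encodes the transcription factor that IRE1 activates by splicing. Its representing probe set had 12.22 and 12.21 on the metastatic arrays, against 12.18 and 11.93 on the non-metastatic arrays, a difference of 0.16 (SE 0.13, 95% interval -0.15 to 0.48), and it ran from 0.04 without non-metastatic replicate 2 to 0.28 without non-metastatic replicate 1. Its other 3 probe sets gave 0.04, 0.01 and -0.24, so the 4 probe sets of Xbp1 did not share a direction, and their mean was -0.01. Hspa5, the gene of the chaperone BiP, had 13.87 and 14.00 on the metastatic arrays, against 13.77 and 13.80 on the non-metastatic arrays. The groups did not overlap, but the difference was small, at 0.15 (SE 0.11, 95% interval -0.13 to 0.43), and it ran from 0.08 to 0.21 with single arrays left out. The other 2 probe sets of Hspa5 gave 0.25 and 0.15, so all 3 pointed the same way.

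For the genes of amino acid and redox supply, the gap between the metastatic arrays was larger than the difference between the group means. Psat1, an aminotransferase of serine synthesis, had 11.88 and 12.33 on the metastatic arrays, against 11.66 and 11.94 on the non-metastatic arrays, a difference of 0.30 (SE 0.19, 95% interval -0.17 to 0.77). Without metastatic replicate 1 the difference of Psat1 was 0.53, and without metastatic replicate 2 it was 0.08. Asns, which makes asparagine, had 11.72 and 12.20 on the metastatic arrays, against 11.69 and 11.999 on the non-metastatic arrays. In both genes the lower metastatic array lay below the higher non-metastatic one. The difference of Asns was 0.11 (SE 0.20, 95% interval -0.38 to 0.61), and it turned to -0.13 without metastatic replicate 2 and to -0.04 without non-metastatic replicate 1. Chac1, which breaks down glutathione, had 9.06 and 9.37 on the metastatic arrays, against 8.93 and 9.16 on the non-metastatic arrays, with a difference of 0.17 (SE 0.16, 95% interval -0.21 to 0.56). It was 0.33 without metastatic replicate 1 and 0.02 without metastatic replicate 2. The second probe sets of Psat1 and Asns gave 0.21 and 0.12.

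Sesn2 encodes a leucine sensor that restrains the growth kinase mTORC1. It had 8.91 and 8.74 on the metastatic arrays, against 9.02 and 8.77 on the non-metastatic arrays. The groups overlapped, and the difference was -0.07 (SE 0.14, 95% interval -0.42 to 0.27). Its second probe set pointed the other way, at 0.17 (SE 0.15), and the representing one turned to 0.01 without metastatic replicate 2 and to 0.05 without non-metastatic replicate 1. No direction can be given for Sesn2.

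Over the 10 genes, 8 had a positive and 2 a negative difference, with a median of 0.17, where the median of all 18193 genes was 0.00 and 49.9% of them were positive. Both metastatic arrays lay above both non-metastatic arrays for 5 of the 10 (Ddit3, Atf4, Trib3, Hspa5 and Xbp1), where 17.2% of all genes did so, and both lay below for 0, where 17.3% did. On the deposited values without further normalization that count of 5 was 4, and with median centring it was 6. Over all 22 probe sets of the 10 genes, 8 had both metastatic arrays above. For Ddit3, Atf4 and Xbp1 only the representing probe set was among them. The 10 genes share regulators and are not independent of each other. They were also chosen with earlier results of these data known, so these shares are a description only. Apart from Trib3 and Ddit3, the median of the other 8 was 0.15, and none of these had an unadjusted p under 0.05.

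**Figure D2:**
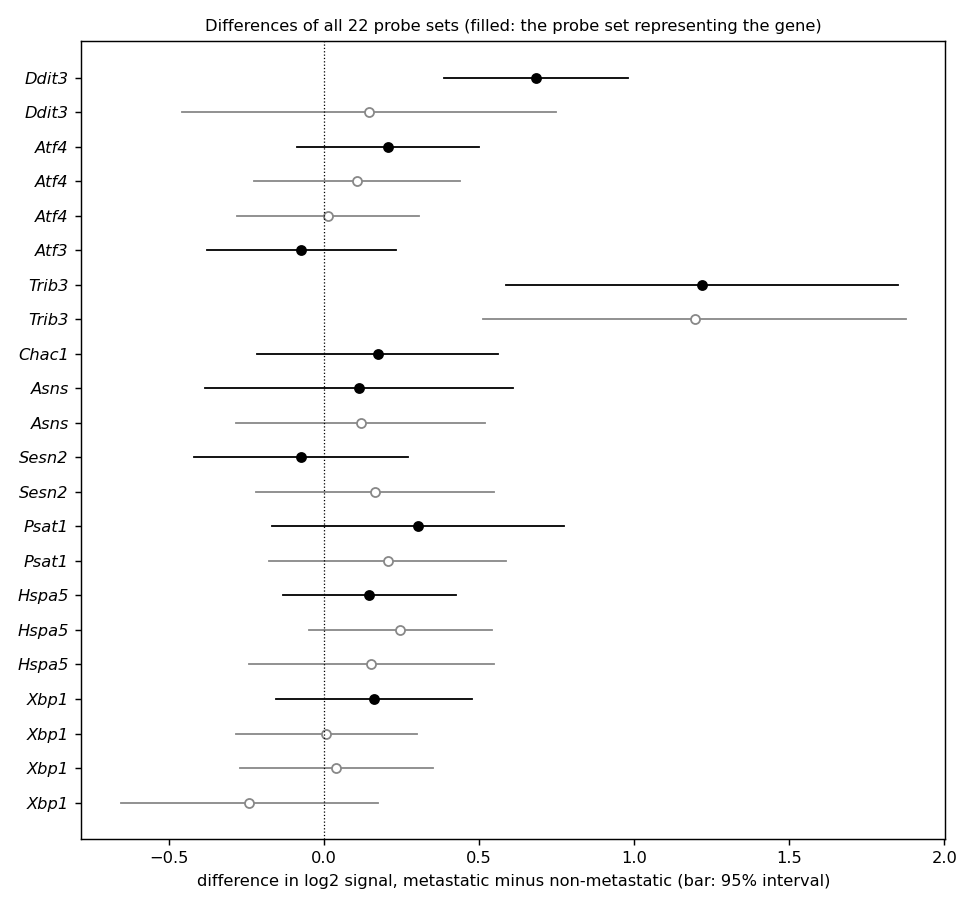
Difference in log2 signal, metastatic minus non-metastatic, of all 22 probe sets of the 10 genes; dots are estimates, filled for the probe set that represents the gene, and bars are unadjusted 95% intervals from limma. The intervals of both probe sets of Trib3 and of 1 of the 2 of Ddit3 lie above 0, and the intervals of the other 19 include it.

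Part of the spread among these genes lay between the 2 metastatic arrays. Metastatic replicate 2 was the highest of the 4 arrays for 7 of the 10 genes, where it was so for 29.0% of all genes, a pattern noticed after the values were seen. Its difference from metastatic replicate 1 was 0.75 for Trib3, 0.49 for Asns, 0.45 for Psat1 and 0.32 for Chac1, while for Ddit3 it stood at -0.07. Between the non-metastatic arrays, replicate 2 exceeded replicate 1 by 0.30 for Asns, 0.28 for Psat1, 0.24 for Trib3 and 0.23 for Chac1. Genes of hypoxia and glycolysis moved with the same array: all 18 measured ones were highest on metastatic replicate 2. Their mean log2 signals were 9.71 and 11.15 on the metastatic arrays, against 9.72 and 9.79 on the non-metastatic arrays. Without metastatic replicate 2 the difference of Trib3 was 0.85 and that of Ddit3 0.72. The part of these genes in the higher Trib3 signal was not tested.

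**Figure D3:**
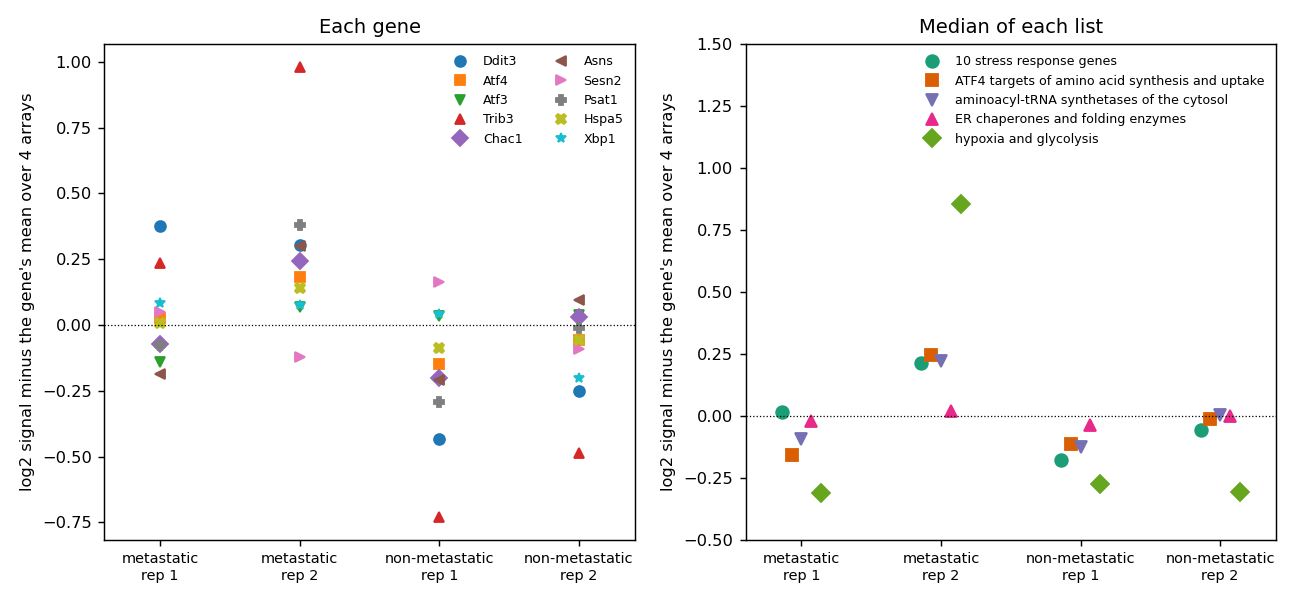
Log2 signal on each of the 4 arrays after subtracting each gene's own mean, for the 10 genes singly (left) and as the median of 5 gene lists (right). Metastatic replicate 2 is the highest array for 7 of the 10 genes and stands at 0.85 for the hypoxia and glycolysis list, against -0.31 on metastatic replicate 1.

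The 5 genes whose pattern over the 4 arrays was most like that of Trib3, the gene with the widest range (1.71), were Narf, Ccng2, Mmp11, Pafah1b3 and Eno2, among 11922 genes with a signal at or above the median. Likeness was the root mean square difference of values centred on each gene's mean, and it was 0.11 for Narf, 0.18 for both Ccng2 and Mmp11, and 0.19 for both Pafah1b3 and Eno2. Narf had 7.64 and 8.39 on the metastatic arrays, against 6.94 and 7.07 on the non-metastatic arrays. Eno2, an enolase of glycolysis, had 7.73 and 8.26 on the metastatic arrays, against 7.05 and 6.87 on the non-metastatic arrays. With 4 arrays such a match is a description only.

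Related genes were followed in 8 lists, including a list of hypoxia and glycolysis, and of their 123 genes 117 were measured. These lists, too, were chosen with earlier results of these data known. None of the 117 passed limma over all probe sets. At an unadjusted limma p under 0.05 there were 13, of which 3 were in the hypoxia and glycolysis list. Over all genes that share was 6.7%. Among 14 regulators and stress effectors of the ATF4 axis, 12 had positive and 2 negative differences, where 49.9% of all genes were positive. Their median was 0.17, and 5 of the 14 had an unadjusted limma p under 0.05. Vldlr, a lipoprotein receptor that ATF4 is known to induce, had 9.82 and 9.68 on the metastatic arrays, against 8.52 and 7.74 on the non-metastatic arrays, a difference of 1.62 (SE 0.26). The growth arrest gene Gadd45a stood at 0.69 (SE 0.14), the autophagy receptor gene Sqstm1 at 0.49 (SE 0.12) and the transcription factor Atf5, a relative of ATF4, at 0.34 (SE 0.12). These 4 genes were named for the smallest p of the list, so groups that did not overlap add little for them. Over the list, 6 of the 14 genes had both metastatic arrays above both non-metastatic arrays, where 17.2% of all genes did so. The limma adjusted p of the 4 named genes ran from 0.329 for Vldlr to 0.768 for Atf5. The probe set of Vldlr also has the ending used for probes that may bind unrelated transcripts.

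Of 16 ATF4 targets of amino acid synthesis and uptake, 14 were positive and 2 negative, where 49.9% of all genes were positive. Their median was 0.13. Their mean log2 signals were 9.49 and 9.89 on the metastatic arrays, against 9.53 and 9.62 on the non-metastatic arrays. Metastatic replicate 1 thus had the lowest mean of the 4 arrays. The arginine and lysine transporter Slc7a3 stood at 0.40 (SE 0.15), the cystine transporter Slc7a11 at 0.17 (SE 0.11) and the alanine transaminase Gpt2 at 0.20 (SE 0.14). Shmt2, of mitochondrial one-carbon metabolism, had 10.68 and 11.66 on the metastatic arrays, against 10.75 and 10.81 on the non-metastatic arrays, so that metastatic replicate 2 alone stood apart. Metastatic replicate 2 was the highest array for 13 of these 16 genes. For 3 of the 16 both metastatic arrays lay above both non-metastatic arrays, where 17.2% of all genes did so. Of 13 genes of cytosolic aminoacyl-tRNA synthetases and tRNA export, which ATF4 also raises, 11 were positive and 2 negative, with a median of 0.13. The seryl-tRNA synthetase Sars stood at 0.44 (SE 0.13), the tRNA exporter Xpot at 0.39 (SE 0.14), the alanyl-tRNA synthetase Aars at 0.25 (SE 0.18) and the asparaginyl-tRNA synthetase Nars at 0.18 (SE 0.13). Metastatic replicate 2 was the highest array for 12 of these 13. The mean log2 signals of the 13 were 10.82 and 11.13 on the metastatic arrays, against 10.77 and 10.89 on the non-metastatic arrays. Both metastatic arrays lay above both non-metastatic arrays for 3 of the 13 and below for 1, where 17.2% and 17.3% of all genes did so.

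The genes upstream and the arms of the endoplasmic reticulum had medians near 0. Of 16 kinases and regulators of eIF2, 7 were positive and 9 negative, with a median of -0.01. The amino acid sensing kinase gene Eif2ak4 stood at 0.27 (SE 0.12), Dnajc3, which inhibits the kinase of the endoplasmic reticulum, at -0.27 (SE 0.14), and the eIF2B subunit genes Eif2b3 and Eif2b5 at -0.23 (SE 0.14) and 0.12 (SE 0.12). Of 8 sensors and proteases of the unfolded protein response, 4 were positive and 4 negative. The IRE1 gene Ern1 had 7.69 and 8.06 on the metastatic arrays, against 8.27 and 8.20 on the non-metastatic arrays, a difference of -0.36 (SE 0.15). The membrane-bound transcription factors Creb3 and Creb3l1 stood at -0.31 (SE 0.11) and -0.30 (SE 0.13), and the protease gene Mbtps2 at 0.11 (SE 0.12).

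Of 19 chaperones and folding enzymes, 11 were positive and 8 negative, with a median of 0.03. The disulphide isomerase gene Pdia4 stood at 0.33 (SE 0.16), the nucleotide exchange factor of BiP, Sil1, at 0.22 (SE 0.12) and the lectin chaperone Canx at 0.14 (SE 0.12). Ero1a, an oxidase that hypoxia also induces, had 10.37 and 11.74 on the metastatic arrays, against 10.29 and 10.11 on the non-metastatic arrays, so its difference of 0.85 (SE 0.42) came with a wide gap between the metastatic replicates. Of 13 genes of endoplasmic reticulum-associated degradation, 7 were positive and 6 negative, with a median of 0.04. Herpud1, a stress-induced scaffold of that pathway, had 11.04 and 11.16 on the metastatic arrays, against 10.81 and 10.59 on the non-metastatic arrays, a difference of 0.40 (SE 0.13, limma adjusted p = 0.700). The membrane protein gene Derl1 stood at 0.20 (SE 0.13), and Ube2j1 and Edem3 at -0.22 (SE 0.15) and -0.21 (SE 0.15).

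Of the 18 measured genes of hypoxia and glycolysis, 17 were positive and 1 negative, with a median of 0.62. Bnip3 had 9.92 and 12.35 on the metastatic arrays, against 9.29 and 9.45 on the non-metastatic arrays, a difference of 1.76 (SE 0.73). Vegfa, an angiogenic growth factor that both ATF4 and hypoxia are known to induce, had 8.92 and 9.80 on the metastatic arrays, against 8.58 and 8.55 on the non-metastatic arrays, a difference of 0.79 (SE 0.28). Aldoa and Pfkp stood at 0.73 (SE 0.21) and 0.45 (SE 0.13). A fit without metastatic replicate 1 leaves metastatic replicate 2 as the single array of its group. The genes of this list that it called were Bnip3 (2.98), Ankrd37 (2.78), Pfkl (2.69), Ndrg1 (1.99), Slc2a1 (1.89) and Pdk1 (1.51), with their differences in brackets. In the same fit Trib3 stood at 1.59, and the median of the 10 stress response genes was 0.31. This alternative for the lists was added after seeing the data.

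**Figure D4:**
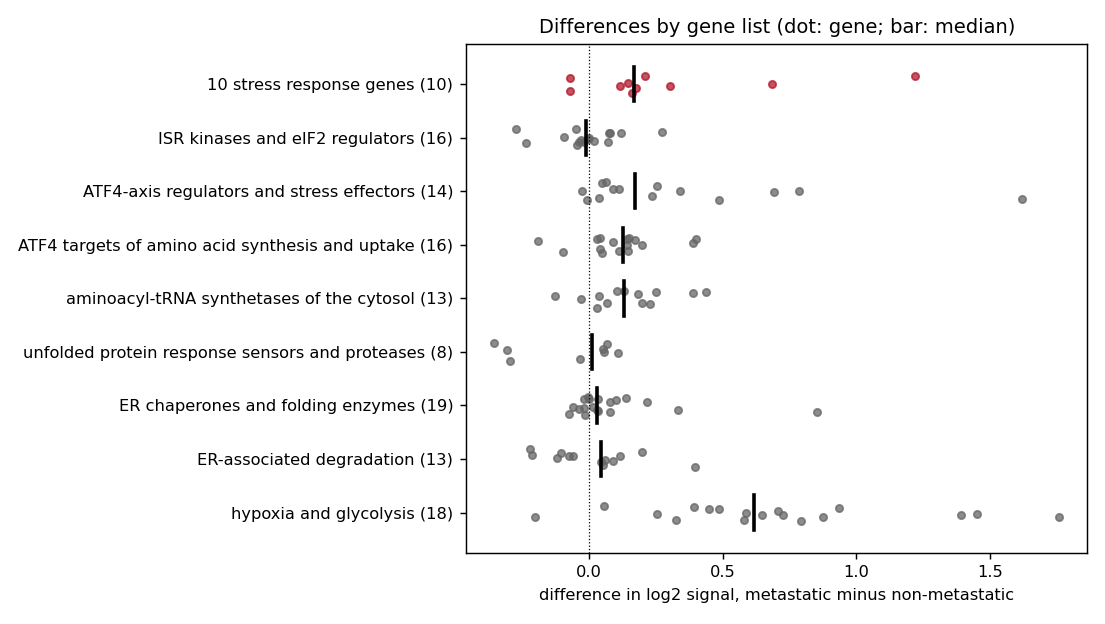
Difference in log2 signal, metastatic minus non-metastatic, for the 10 stress response genes and 8 lists of related genes, with the number of measured genes in brackets; dots are genes and bars are medians. The lists of ATF4 targets have medians of 0.13 to 0.17, those of the endoplasmic reticulum arms lie within 0.05 of 0, and the hypoxia and glycolysis list stands at 0.62. Single arrays are not shown, and all 18 hypoxia and glycolysis genes were highest on metastatic replicate 2.

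Marker lists of other cell types are given beside these values, and none of their genes passed limma over all probe sets (adjusted p = 0.498 for Lyve1, 0.185 for Emcn and 0.424 for Pdpn). Of 7 smooth muscle and mural cell markers, 6 were lower in the metastatic group, with mean log2 signals of 8.00 and 8.43 on the metastatic arrays, against 8.61 and 8.84 on the non-metastatic arrays. Of 8 blood and pan endothelial markers, 5 were lower and 3 higher, the latter by at most 0.09, with a median difference of -0.10. The means of the 8 were 5.68 and 5.28 on the metastatic arrays, against 6.13 and 5.75 on the non-metastatic arrays. Emcn had the widest difference of that list. The endothelial sialomucin gene Emcn had 6.50 and 5.66 on the metastatic arrays, against 8.77 and 8.45 on the non-metastatic arrays, a difference of -2.53 (SE 0.29). Of 6 lymphatic endothelial markers, 4 were lower, with a median difference of -0.11, where 49.9% of all genes were positive. The means of the 6 were 6.34 and 5.84 on the metastatic arrays, against 6.64 and 6.32 on the non-metastatic arrays. Besides Lyve1, which had the widest difference, Prox1 stood at -0.14, Flt4 at -0.13, Mmrn1 at -0.08, Reln at 0.24 and Pdpn at 0.51. In that list the hyaluronan receptor gene Lyve1 had 6.32 and 4.23 on the metastatic arrays, against 8.26 and 7.80 on the non-metastatic arrays. Its difference was -2.76 (SE 0.64) and that of Pdpn, the gene of the selection marker, 0.51 (SE 0.11), and for both the groups did not overlap. Of 8 leukocyte markers, 5 were lower, close to the share over all genes, of which 49.9% were positive, with means of 6.06 and 5.84 on the metastatic arrays, against 6.09 and 6.08 on the non-metastatic arrays. The part of these markers in the values of Trib3 and Ddit3 was not tested.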

How the data were processed

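Gene expression was measured on 4 Affymetrix arrays, 1 for each preparation, after single-cycle biotin labelling of 3 ug of total RNA, per the labels' protocols. The authors deposited a log2 signal per probe set, as its range shows (3.10 to 14.81), and the array medians were 5.88, 5.99, 5.96 and 5.98. How probes were summarised, and whether arrays were normalized together, is not given in the sources used here. Precision is limited by the number of arrays. The titles of the samples gave the groups and call the replicates biological.

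Of 45101 probe sets, 64 controls were left out. The arrays were quantile normalized, since their medians differed by 0.116, and fitted with limma (lmFit, eBayes; 2 residual and 3.71 prior degrees of freedom) as metastatic minus non-metastatic. The p was adjusted by Benjamini-Hochberg over 45037 probe sets. Of these, 34945 had 1 gene symbol, 932 several and 9160 none in the platform annotation, and 34741 symbols were updated through Entrez numbers. Named genes were the 10 genes, up to 4 of each list with the smallest p, and the 5 most like the gene with the widest range. Cell type markers were named besides these. Of them Pdpn, Prox1, Pecam1, Pdgfrb and Ptprc were planned as defining ones, and the others, such as Emcn and Lyve1, were not. The genes and lists were chosen with earlier results of these data known. On simulated arrays of 45037 probe sets the fit called 62.0% of changes of 1 log2 unit and 97.0% of changes of 2, and it also called 17 probe sets that had no change. The simulated noise was independent between probe sets and equally wide in both groups. On the real arrays whole lists moved together on metastatic replicate 2, so these shares are not the power of these data. Alternatives were the deposited values, median centring, trended robust moderation, a replicate block, brighter probe sets, the mean of probe sets, a fold rule and each array left out. R 4.3.3, limma 3.58.1, Python 3.11.15 and matplotlib 3.10.9 were used.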

Additional observations from a re-analysis of the deposited data

How the results depend on the processing

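Of 100 differences of single genes recomputed under an alternative, 92 kept their direction and side of the threshold. Trended robust moderation, the replicate block and the brighter probe sets refit the same values, so the direction could not change there. None of the 10 genes was called in the main fit, so keeping the side of the threshold meant staying uncalled. The size of a difference was not part of this count. With the mean of probe sets Sesn2 turned to 0.0461 and Xbp1 to -0.00714. With single arrays left out, Asns ran from -0.130 to 0.358, Sesn2 from -0.200 to 0.0542 and Atf3 from -0.178 to 0.0340. The median difference of the 10 genes ran from 0.0788 to 0.309 with single arrays left out. The number of the 10 genes called stayed at 0 with every array left out, the number of probe sets called ran from 0 to 67, and the number of list genes called from 0 to 6, the highest of each being without metastatic replicate 1. In such a fit the single array left in a group is assumed to vary as the other group does. Trended robust moderation called 5 probe sets, and 291 probe sets differed by at least 1 log2 unit. The groups share replicate numbers, which the labels do not call a pairing. The deviations of same-numbered arrays from their group means correlated at 0.25. With the replicate number as a block limma called 145 probe sets, 1 of the 10 genes (Trib3, adjusted p = 0.0442) and 1 list gene (Vldlr, adjusted p = 0.0238). The alternatives for the list genes and the non-overlap counts were chosen after seeing the data. Without scanner files, dim probe sets cannot be called absent.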
